A study of Mus musculus with 4 samples.

Results

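The 8 genes described here, Postn, Tnc, Mkx, Scx, Tnmd, Ptn, Pthlh and Tnn, are known from the dental follicle, the periodontal ligament and tendon. They were followed in the chromatin of incisor dental mesenchyme. Wild-type C57BL/6 mice, 4 weeks old and given no treatment in the labels, were the source of the incisor mesenchyme. The assay was ATAC-seq, whose transposase inserts adapters into accessible DNA. The 4 samples were sequencing lanes 1 to 4, and all lanes share a single column of deposited values. They are therefore described as 1 library, with no replicate error and no test. A region was counted for a gene when the transcription start site (TSS) of a protein-coding transcript nearest to its midpoint belonged to that gene, or when it overlapped 1 kb either side of a TSS of the gene. This rule took 128 of 121574 regions and 1639 of 2297894 reads, and each of the 8 genes had at least 3 regions. Intervals in parentheses are exact 95% Poisson intervals of read counts or exact 95% binomial intervals of shares, and cover counting error only. The positions are in mm10.

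The dental follicle is a sac of loose connective tissue around the developing tooth. It gives rise to the periodontal ligament, which anchors the root to bone, and to the cells that lay down cementum and part of the alveolar bone. Matrix proteins such as periostin and tenascins mark this tissue. Tendon and ligament fibroblasts share the transcription factors scleraxis and Mohawk and the surface protein tenomodulin. Parathyroid hormone-related protein acts through its receptor in the follicle and is needed for teeth to erupt. The label names dental mesenchyme and does not say how much follicle or ligament the dissected tissue held. In bulk chromatin, fewer cells with an open region and a less open region in each cell cannot be told apart.

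The labelled tissue was checked against marker genes. All 18 dental mesenchyme markers had a region and 17 had more reads than the median gene, where 49.8% of all genes with a region did. Of the leukocyte markers 2 of 10 exceeded it, of the endothelial markers 7 of 10, of the dental epithelium markers 6 of 10 and of the skeletal muscle markers 0 of 8. Per 100 kb of the sequence nearest to their TSSs, 14 of 18 dental mesenchyme markers exceeded the median gene, where 50.0% of genes with a region did. By that score the counts were 1 of 10 leukocyte, 3 of 10 endothelial, 6 of 10 dental epithelium and 1 of 8 skeletal muscle markers. None of the 10 leukocyte markers had a region at a promoter, against 17 of the 18 dental mesenchyme markers and 64.6% of all protein-coding genes. Such a region was also present at 8 of 10 endothelial, 7 of 10 dental epithelium and 4 of 8 skeletal muscle markers. Reads of these lists ran from 69 to 1061 in dental mesenchyme, 0 to 591 in leukocyte, 16 to 1032 in endothelial, 8 to 276 in dental epithelium and 2 to 83 in skeletal muscle markers. What part other cell types have in the regions of the 8 genes was not tested.

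The sequences that later paragraphs refer to are printed first. Some come from regions with few reads, with 3 at the Tnn promoter, 6 at that of Scx and 7 at that of Postn. For 6 genes, the sequences are the bases of the promoter region with the most reads that lie upstream of the annotated 5′ end of the gene, at most 300. For Tnc and Ptn, the genes with the most reads, the middle 300 bases of the largest region away from promoters follow. All read 5′ to 3′ on the strand of the gene, from the RefSeq genome sequence GRCm38.p6. Capitals mark matches, on either strand, to the TATA box letters TATAAA, the TEAD letters GGAATG, the TALE homeodomain core TGACAG, the SMAD letters CAGACA, the scleraxis-type E-box CAGATG or CATCTG, the RUNX letters TGTGGT and the AP-1 letters TGANTCA. A match is a string of letters and not a bound site.
Tnc promoter, chr4:64047016-64047315, minus strand: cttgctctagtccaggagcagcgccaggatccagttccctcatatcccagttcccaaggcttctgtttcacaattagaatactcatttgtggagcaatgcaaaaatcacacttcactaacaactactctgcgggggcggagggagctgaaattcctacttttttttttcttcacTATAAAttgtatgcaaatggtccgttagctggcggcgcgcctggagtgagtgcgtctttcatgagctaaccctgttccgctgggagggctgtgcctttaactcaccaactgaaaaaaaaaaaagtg
Postn promoter, chr3:54360845-54361108, plus strand: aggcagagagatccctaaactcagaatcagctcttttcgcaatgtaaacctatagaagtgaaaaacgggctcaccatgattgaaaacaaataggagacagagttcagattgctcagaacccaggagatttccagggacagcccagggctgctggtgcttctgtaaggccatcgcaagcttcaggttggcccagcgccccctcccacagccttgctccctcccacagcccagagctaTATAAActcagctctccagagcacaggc
Tnn promoter, chr1:160153584-160153773, minus strand: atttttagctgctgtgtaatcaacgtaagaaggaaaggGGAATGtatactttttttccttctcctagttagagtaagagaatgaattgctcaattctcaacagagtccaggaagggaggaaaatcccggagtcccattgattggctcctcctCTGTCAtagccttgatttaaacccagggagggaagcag
Scx promoter, chr15:76457406-76457451, plus strand: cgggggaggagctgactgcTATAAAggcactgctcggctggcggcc
Ptn promoter, chr6:36810221-36810336, minus strand: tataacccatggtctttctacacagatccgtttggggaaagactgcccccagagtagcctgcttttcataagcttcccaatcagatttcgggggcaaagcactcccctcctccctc
Pthlh promoter, chr6:147264184-147264418, minus strand: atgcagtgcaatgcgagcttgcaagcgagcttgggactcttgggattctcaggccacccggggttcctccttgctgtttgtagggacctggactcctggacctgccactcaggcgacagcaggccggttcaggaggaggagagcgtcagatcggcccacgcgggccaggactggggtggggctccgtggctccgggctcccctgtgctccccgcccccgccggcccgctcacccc
Tnc distal region, 111 kb upstream, chr4:64157906-64158205, minus strand: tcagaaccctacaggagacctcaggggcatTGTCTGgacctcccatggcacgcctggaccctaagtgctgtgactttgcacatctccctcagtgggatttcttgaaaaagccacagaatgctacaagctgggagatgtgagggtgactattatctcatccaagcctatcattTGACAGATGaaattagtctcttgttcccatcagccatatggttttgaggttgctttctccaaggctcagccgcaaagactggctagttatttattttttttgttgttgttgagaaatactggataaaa
Ptn distal region, 94.1 kb upstream, chr6:36904196-36904495, minus strand: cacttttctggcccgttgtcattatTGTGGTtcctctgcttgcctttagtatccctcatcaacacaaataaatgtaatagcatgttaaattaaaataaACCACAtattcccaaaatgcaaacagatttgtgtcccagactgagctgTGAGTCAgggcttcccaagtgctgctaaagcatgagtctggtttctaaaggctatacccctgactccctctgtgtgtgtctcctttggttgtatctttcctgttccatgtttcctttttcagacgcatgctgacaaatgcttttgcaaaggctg

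The 8 genes differed by more than an order of magnitude in their reads. Tnc had 576 reads (530 to 625) and Ptn 568 (522 to 617), and together they held 69.8% of the reads of the 8 genes in 76 of the 128 regions. Mkx followed with 196 reads (169.5 to 225). Postn had 117 (96.8 to 140) and Pthlh 101 (82.3 to 123). Scx had 42 (30.3 to 56.8), Tnn 20 (12.2 to 30.9) and Tnmd 19 (11.4 to 29.7). Counting intervals of neighbours in this order overlapped between Tnc and Ptn, Postn and Pthlh, Scx and Tnn, and Tnn and Tnmd, and did not overlap between Ptn and Mkx, Mkx and Postn, or Pthlh and Scx. The median gene with a region had 85 reads, so 5 of the 8 genes lay above it. The order depended on the rule that ties regions to genes. With noncoding TSSs included, Ptn had 230 reads, Mkx 65, Tnc 57 and Pthlh 57. With all regions within 100 kb of a TSS, Tnn had 712 reads and Scx 395, against 318 at Ptn and 222 at Tnc.

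**Figure D1:**
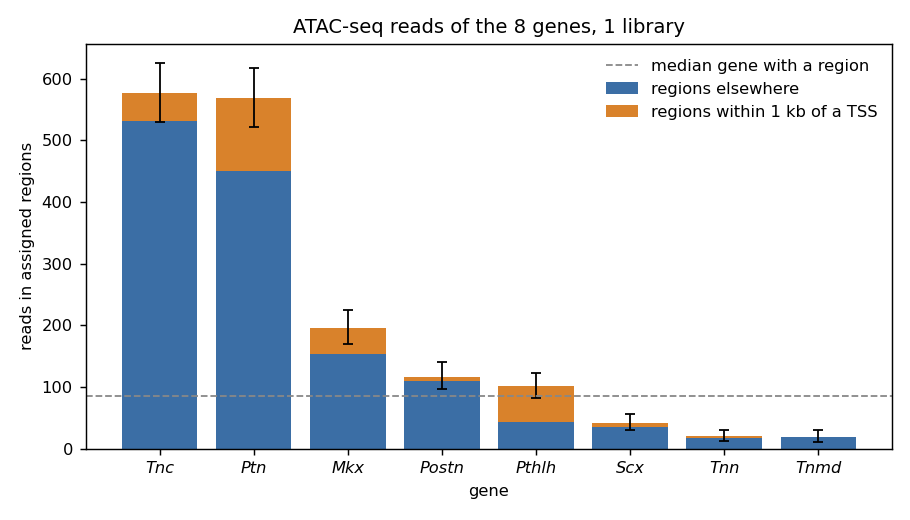
Reads in the regions of each gene (y axis, linear) in the 1 library, with regions within 1 kb of a TSS in orange and regions elsewhere in blue; error bars are exact 95% Poisson intervals of the sum, and the dashed line is the median gene with a region at 85 reads. Tnc with 576 and Ptn with 568 reads stand above Mkx with 196, and Scx, Tnn and Tnmd lie below the median gene.

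Under the nearest protein-coding TSS rule, most of these reads lay away from promoters. Regions whose midpoint was within 1 kb of a TSS held 278 of the 1639 reads of the 8 genes, or 17.0% (15.2% to 18.9%), against 50.55% over all regions of the library. They made up 10 of the 128 regions (7.81%), against 20.1% of all regions. Region by region the 8 genes did not stand apart in the same way. The median was 15.5 reads for their promoter regions and 14 for those of the whole library, and 6 reads for regions elsewhere in both. At least 10 reads were found in 52 of the 128 regions (40.6%), where 39.0% of all regions had as many. No reads were found in 13 of them (10.2%), where 5.84% of all regions had none. The low share of reads at promoters depends on the rule. With noncoding TSSs included, the promoter regions and their 278 reads are kept, while the 8 genes had 541 reads in 47 regions in all.

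Under the nearest protein-coding TSS rule, Pthlh was the exception among the 8 genes, with 56.4% of its reads at promoters (46.2% to 66.3%). The share was 21.9% in Mkx (16.4% to 28.4%), 20.6% in Ptn (17.3% to 24.2%), 7.81% in Tnc (5.76% to 10.3%) and 5.98% in Postn (2.44% to 11.9%). Low counts left wide intervals for Scx, at 14.3% (5.43% to 28.5%), and Tnn, at 15.0% (3.21% to 37.9%). Tnmd had no read at its promoter, which with 19 reads in all allowed a share of up to 17.65% (upper binomial bound). With noncoding TSSs included, Pthlh did not stand alone. Promoter reads were then 57 of 57 in Pthlh, 45 of 57 in Tnc, 43 of 65 in Mkx and 117 of 230 in Ptn, but 7 of 51 in Postn. The sums of Scx, Tnn and Tnmd did not change.

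**Figure D2:**
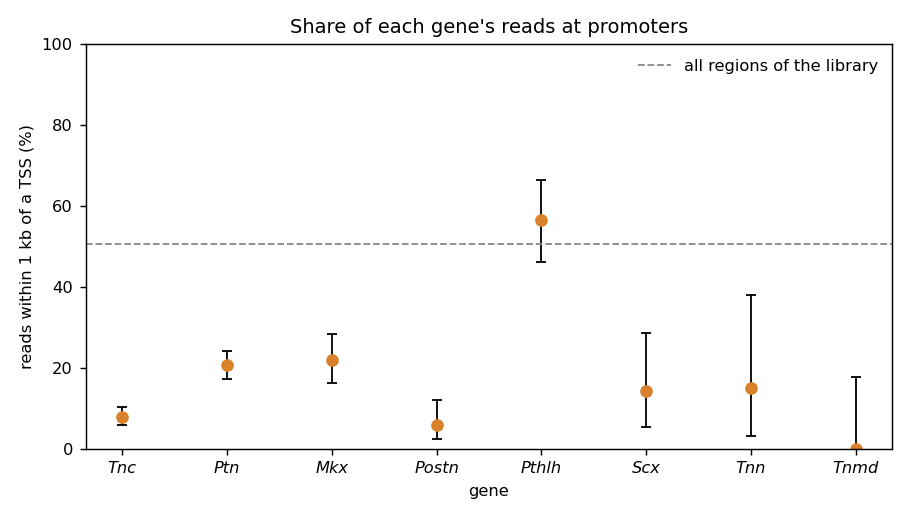
Share of the reads of each gene that lay in regions within 1 kb of a TSS (y axis, percent), with exact 95% binomial intervals; the dashed line is the 50.55% of all regions of the library. Under the nearest protein-coding TSS rule, only the interval of Pthlh, at 56.4%, reaches the line, and the other 7 genes lie below it.

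Under the nearest-TSS rule a gene beside a long gap is given more sequence, so reads were also set against that length. The sequence nearest to their TSSs spanned 645 kb for Tnc, 456 kb for Ptn, 268 kb for Postn, 266 kb for Mkx, 192 kb for Pthlh, 105 kb for Tnmd, 62.9 kb for Tnn and 43.6 kb for Scx, against a median of 56.5 kb for genes with a region. Per 100 kb of this sequence, Ptn had 125 reads (115 to 135), Scx 96.3 (69.4 to 130.1), Tnc 89.4 (82.2 to 97.0) and Mkx 73.6 (63.6 to 84.7). Pthlh had 52.5 (42.8 to 63.8), Postn 43.6 (36.1 to 52.2), Tnn 31.8 (19.4 to 49.1) and Tnmd 18.1 (10.9 to 28.3). The median gene had 127 reads per 100 kb, and 0 of the 8 genes exceeded it, where 50.0% of genes with a region did. The intervals of Ptn and Scx included that median. The reads of Mkx were 4.67 times those of Scx as a sum, whereas per 100 kb their intervals overlapped, and the interval of Scx also overlapped those of Ptn and Tnc.

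**Figure D3:**
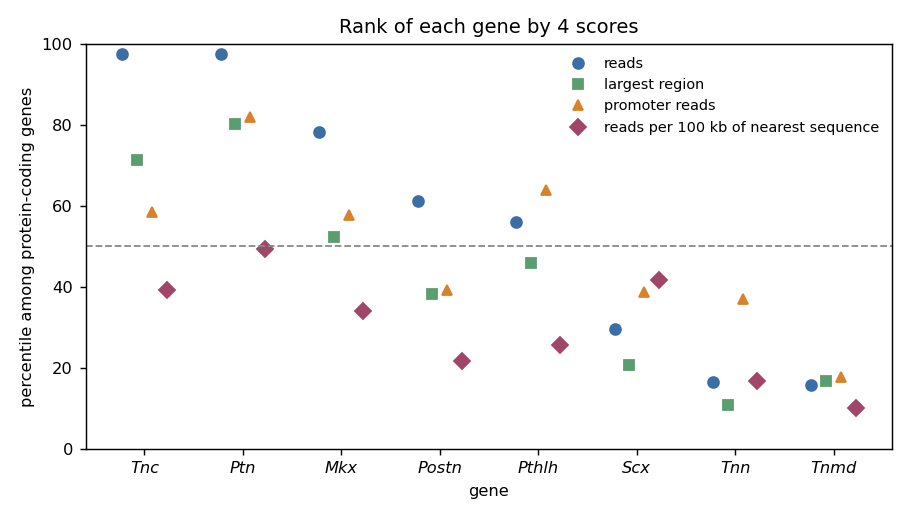
Percentile of each gene (y axis) by 4 scores: the sum of reads, the largest region and reads per 100 kb of nearest sequence among genes with a region, and promoter reads among all protein-coding genes; the dashed line is the 50th percentile. Tnc and Ptn lie at percentiles 97.5 and 97.5 by their sum but at 39.3 and 49.3 per 100 kb, and none of the 8 genes exceeds the line per 100 kb.

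Among the matrix genes, Tnc, which encodes tenascin C, a large adhesion-modulating glycoprotein of ligament and wound matrix, was surrounded by open regions mainly on its upstream side. The gene lies on chromosome 4 from 63959785 to 64047015 on the minus strand. Its promoter region, 64046844 to 64047344, had 45 reads (32.8 to 60.2), and a region abutting it had 0. Upstream of the promoter, 29 regions held 472 of its 576 reads. They are given to Tnc by the nearest protein-coding TSS, and with noncoding TSSs included Tnc kept 57 reads in all. Which gene these regions act on was not measured. The largest, printed above as the Tnc distal region, ran from 64157771 to 64158341 in intergenic sequence and had 90 reads (72.4 to 111), so that its interval did not overlap that of the promoter region. A region 154 kb upstream, 64200256 to 64201015, had 55 (41.4 to 71.6).

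The upstream regions of Tnc were counted in fixed ranges of distance from the TSS. Within 100 kb of the TSS there were 8 regions with 118 reads, all 8 inside the noncoding gene 8030451A03Rik, which overlaps Tnc on the opposite strand and begins within it. From 100 to 200 kb there were 8 regions with 195 reads. Beyond 200 kb, 13 regions held 159 reads, among them one of 35 reads 391 kb upstream, and the farthest lay 520 kb from the TSS. Inside the gene, by contrast, only 4 regions with 21 reads lay away from the promoter, and a further 2 with 38 reads lay downstream of its end. Of the reads of Tnc, 81.4% lay more than 50 kb from the 5′-most TSS.

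Postn encodes periostin, a matrix protein of the periodontal ligament and periosteum that binds collagen and integrins. Most reads assigned to it lay downstream rather than over the gene. Postn lies on chromosome 3 from 54361109 to 54391037 on the plus strand. Its promoter region, 54360845 to 54361195, had 7 reads (2.81 to 14.4). By promoter reads summed per gene, Postn was at percentile 5.98 of genes with a promoter region. The single region was at percentile 39.0 of all regions within 1 kb of a TSS. No region had its midpoint inside the gene body of 29.9 kb. Downstream of the gene, 8 regions between 49.9 and 129 kb from the TSS held 95 of its 117 reads. The largest of these, 54461406 to 54461874, had 33 reads (22.7 to 46.3). Next came 54410851 to 54411225 with 20 (12.2 to 30.9) and 54443881 to 54444139 with 12 (6.20 to 20.96). The downstream regions are given to Postn by the nearest protein-coding TSS, and which gene they act on was not measured. Postn had 51 reads in all with noncoding TSSs included, and 11 over the gene body and 5 kb around it. Upstream, 2 regions with 11 reads in all lay in an intron of the neighbouring cation channel gene Trpc4, and 2 regions nearer the promoter had 2 reads each.

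Tnn, which encodes tenascin W, a relative of tenascin C found in bone and periosteum, was sparsely open. It lies on chromosome 1 from 160085029 to 160153580 on the minus strand and has a second annotated TSS within the gene. Its 5 regions had 9, 4, 4, 3 and 0 reads, so none reached 10. The region with 9 reads (4.12 to 17.1), 160149207 to 160149602, was intronic and 4.18 kb downstream of the first TSS. The promoter region, 160153584 to 160153773, had 3 (0.619 to 8.77). Tnc and Tnn are paralogs, and the reads of Tnc were 28.8 times those of Tnn as a sum and 2.81 times per 100 kb.

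**Figure D4:**
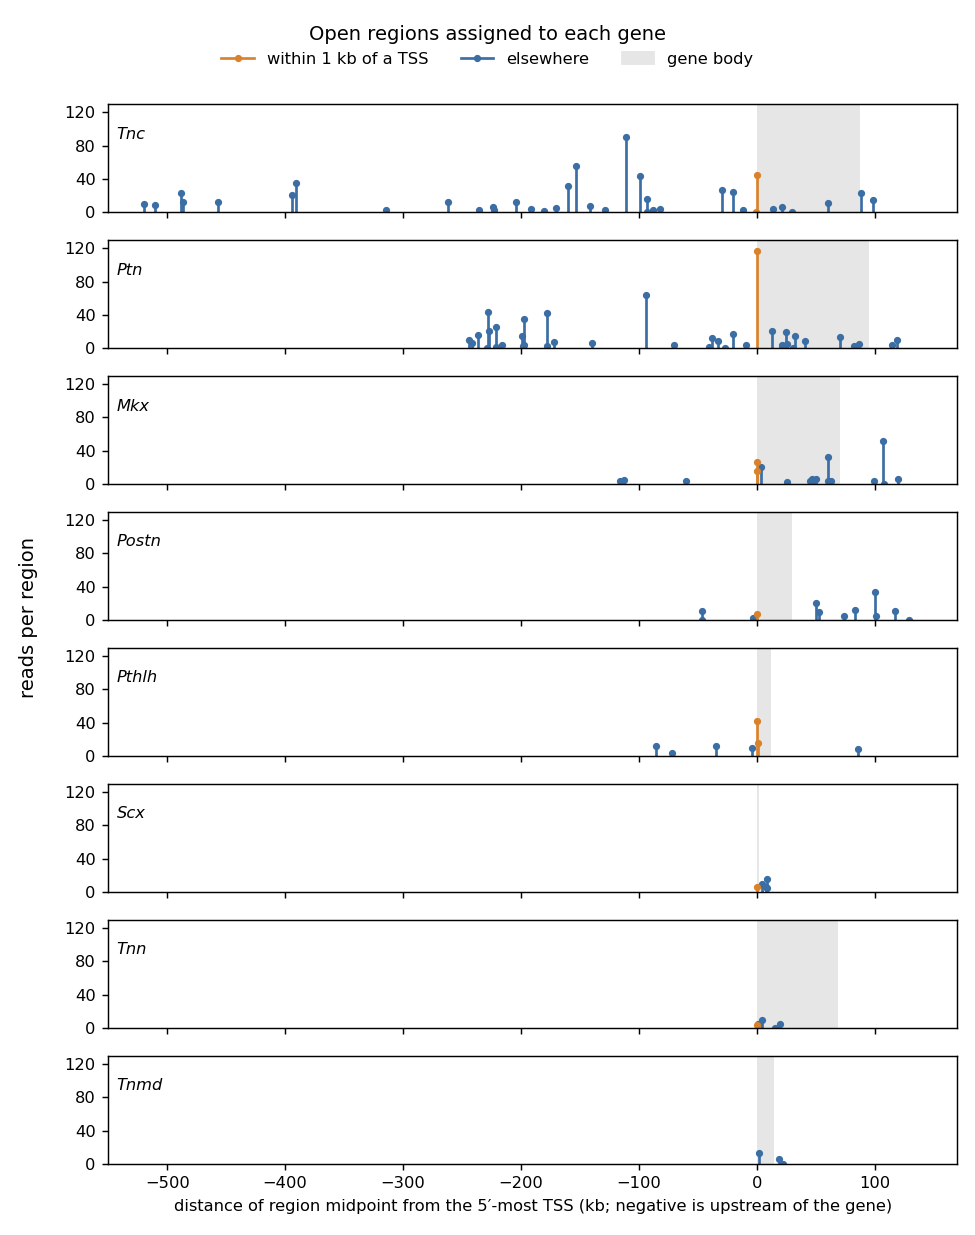
Reads per region (y axis, linear, the same in each row) against the distance of the region's midpoint from the 5′-most TSS (x axis, kb, negative upstream) for the 8 genes; regions within 1 kb of a TSS are orange, others blue, and the gene body is shaded. The tallest regions of Tnc (90 reads) and Mkx (52 reads) lie 111 kb upstream and 107 kb downstream of the TSS, that of Ptn (117 reads) lies at its promoter, and the body of Postn holds no region.

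Of the tendon and ligament factors, Mkx had the more open surroundings by its sum of reads. It encodes Mohawk, a homeodomain factor of the TALE class that supports collagen production in tendon. The gene lies on chromosome 18 from 6934518 to 7004780 on the minus strand. A pair of abutting promoter regions had 27 reads (17.8 to 39.3) and 16 (9.14 to 26.0), the first of them spanning the TSS. The region with the most reads lay not there but downstream of the gene end, 107 kb from the TSS, at 6897344 to 6898192, with 52 reads (38.8 to 68.2). An intronic region from 6944124 to 6944588, 60.4 kb from the TSS, had 33 (22.7 to 46.3). The 10 regions of the gene body away from the promoter held 80 reads, and beyond the promoter the upstream side held 3 regions with 11 reads. Regions away from the promoter are given to Mkx by the nearest protein-coding TSS, and which gene they act on was not measured. With noncoding TSSs included, Mkx had 65 reads in all.

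Scx encodes scleraxis, a basic helix-loop-helix factor that binds E-boxes and marks tendon and ligament progenitors. It is a short gene of 2.01 kb on chromosome 15, from 76457452 to 76459458 on the plus strand, and lies inside Bop1, a ribosome biogenesis gene on the other strand. Its promoter region, 76457406 to 76457812, had 6 reads (2.20 to 13.1). By promoter reads summed per gene, Scx was at percentile 5.12 of genes with a promoter region. The single region was at percentile 36.3 of all regions within 1 kb of a TSS. The other 4 regions had 36 reads and lay 3.90 to 8.44 kb downstream in introns of Bop1. Of these, 3 abutting regions held 27 reads (17.8 to 39.3), with 16 in the middle region from 76465614 to 76465842. No region lay upstream of Scx within its nearest sequence.

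Tnmd encodes tenomodulin, a membrane protein of mature tendon and ligament fibroblasts whose expression depends on scleraxis and Mohawk. On chromosome X, from 133850980 to 133865577 on the plus strand, it was the 1 gene of the 8 with no region within 1 kb of its TSS. A promoter region was present at 64.6% of all protein-coding genes. The nearest region to its TSS, 133852463 to 133852699, was intronic, 1.60 kb downstream, and had 13 reads (6.92 to 22.2). A region 18.9 kb from the TSS and past the gene end had 6 reads, and another had 0. Mkx had 4.06 times as many reads per 100 kb as Tnmd.

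The secreted signals differed in layout. Ptn encodes pleiotrophin, a heparin-binding growth factor of mesenchyme and nerve. It lies on chromosome 6 from 36714929 to 36810220 on the minus strand and had the largest promoter region of the 8 genes, 36809326 to 36810336, with 117 reads (96.8 to 140). This region was 1011 bp wide and lay mostly downstream of the TSS. By promoter reads summed per gene, Ptn was at percentile 72.2 of genes with a promoter region, the highest of the 8 genes. The single region was at percentile 87.4 of all regions within 1 kb of a TSS. Upstream, 25 regions held 347 reads, and 21 of them, with 317 reads, lay inside Dgki, the neighbouring gene for a diacylglycerol kinase. In an intron of Dgki lay the Ptn distal region printed above, 36903970 to 36904722, with 64 reads (49.3 to 81.7). Further upstream, 37038271 to 37038716 had 43 (31.1 to 57.9). Beyond 200 kb upstream, 9 regions held 124 reads. The nearest-TSS rule gives these regions to Ptn because the TSS of Dgki lies farther away, and which gene they act on was not measured. The gene body held 11 regions with 90 reads away from the promoter.

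Pthlh encodes parathyroid hormone-related protein. It lies on the same chromosome from 147252101 to 147264183 on the minus strand and was open mainly at its start. The promoter region over the TSS, 147263870 to 147264418, had 42 reads (30.3 to 56.8), and the region abutting it inside the gene, 147263102 to 147263869, had 15 (8.39 to 24.7). Its 5 other regions had 44 reads in all and at most 12 each, of which 36 lay upstream in 4 regions. The upstream region from 147298565 to 147298868, 34.5 kb from the TSS, had 12 (6.20 to 20.96). No region lay in the rest of the gene body.

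Promoter sequence varied among the 8 genes. Over 500 bp either side of the 5′ end, the ratio of observed to expected CpG pairs was 0.700 in Pthlh, 0.700 in Scx and 0.674 in Mkx. It was 0.495 in Tnc, 0.318 in Ptn, 0.283 in Tnn, 0.265 in Tnmd and 0.214 in Postn, against a median of 0.552 over all genes. Promoter reads followed this order only in part. Pthlh had 57, Mkx 43 and Tnc 45, against 3 in Tnn, 0 in Tnmd and 7 in Postn. Ptn, with a low ratio, had the most promoter reads at 117, and Scx, with a high ratio, had 6. Whether the ratio and the promoter reads are related was not tested. The median gene with a promoter region had 67 promoter reads, and of the 8 genes Ptn alone exceeded it.

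A TATAAA string on either strand lay within 300 bases upstream of the 5′ end in 3 of the 8 genes, Postn, Scx and Tnc, against 13.7% of all protein-coding genes. As the printed sequences show, it began 28 bases before the 5′ end in Postn, 27 bases before it in Scx and 126 bases before it in Tnc. On the strand of the gene and with its first base 20 to 40 bases before the 5′ end, it was thus present in 2 of the 8, against 2.43% of all genes. The protein-coding TSS of Scx used for distances lies inside the gene record, and the string began 95 bases before that TSS. Measured from the first protein-coding TSS, a choice added after seeing the data, the count was 1 of 8, Postn, against 2.41% of all genes. The Postn and Scx promoter regions with these strings were among the least read, at 7 and 6 reads. The printed promoter stretches of Ptn and Pthlh held no match to the motifs in capitals. This says only that the letters are not in those windows.

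For each motif, the interval of the share in regions away from promoters included the share of the library. In windows of 300 bp around the midpoints of the 118 regions, the general E-box CANNTG was in 82.2% (74.1% to 88.6%), against 80.4% of the 97144 such regions of the library. Because the general E-box includes the scleraxis-type form, the counts overlap. The scleraxis-type E-box was in 22.9% (15.7% to 31.5%) against 25.4%, and the RUNX letters in 29.7% (21.6% to 38.8%) against 25.3%. The TEAD letters were in 20.3% (13.5% to 28.7%) against 19.6%, the SMAD letters in 33.9% (25.4% to 43.2%) against 29.4%, and the TALE core in 18.6% (12.1% to 26.9%) against 21.6%. The homeodomain letters TAATTA were in 12.7% (7.29% to 20.1%) against 13.9%. The AP-1 letters were in 16.9% (10.7% to 25.0%) against 11.0%, and TATAAA in 19.5% (12.8% to 27.8%) against 12.8%, both just inside the interval. In the 46 of these regions with at least 10 reads, AP-1 letters were in 17.4% against 10.2% and TATAAA in 21.7% against 12.5%. The TALE core was in 10.9% against 20.3%, and the other motifs differed less. No interval was computed for this subset. Regions of the 8 genes share loci and were not tested as independent. Their windows had a median GC content of 45.3%, against 48.3% in the library.

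The 2 distal sequences printed above differed in these letters. That of Tnc held a TALE core overlapping a scleraxis-type E-box, in the run TGACAGATG, and SMAD letters on the opposite strand nearer its 5′ end. That of Ptn held RUNX letters once on each strand and an AP-1 string, TGAGTCA. Over all their regions, AP-1 letters were in 6 windows of Tnc and 7 of Ptn, RUNX letters in 12 and 8, and scleraxis-type E-boxes in 10 and 9. A scleraxis-type E-box was in 0 of the 5 windows of Scx, 0 of 7 of Pthlh and 0 of 3 of Tnmd, numbers too small to set against the 25.4% of regions elsewhere and 12.3% of promoter regions in the library.

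Paralogs of the 8 genes were set beside them. Tgfbi, the relative of Postn, had 252 reads (222 to 285) over 16 regions, against 117 in Postn. Of the other tenascins, Tnr, known from the nervous system, had 262 (231 to 296) and Tnxb 38 (26.9 to 52.2). Tcf15, the relative of Scx known from somites, had 41 (29.4 to 55.6), close to the 42 of Scx. Cnmd, the cartilage relative of Tnmd, had 74 (58.1 to 92.9). Mdk, the relative of Ptn, had 50 (37.1 to 65.9), all in 1 promoter region. No region was assigned to Pth, the relative of Pthlh that encodes parathyroid hormone. Among the TALE relatives of Mkx, Irx5 had 1088 reads, Irx3 568, Irx1 410, Irx6 209 and Irx2 185, against 196 in Mkx. The nearest sequence spanned 77.3 kb for Tgfbi and 9.53 kb for Mdk, and 235 to 894 kb for the Irx genes.

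Receptors and partners of the secreted proteins were described next. All 13 had a promoter region, where 64.6% of protein-coding genes did, and 12 of 13 had more reads than the median gene, where 49.8% of genes with a region did. At promoters alone, 5 of the 13 exceeded the 67 reads of the median gene with a promoter region. Per 100 kb of nearest sequence, 8 of the 13 exceeded the median gene, where 50.0% of genes with a region did. Pth1r, the receptor for parathyroid hormone-related protein, had 296 reads (263 to 332), with 104 in promoter regions. It had 531 reads per 100 kb, against 52.5 for its ligand gene Pthlh. Among pleiotrophin partners, Alk had 266, Ncl 250, Lrp1 246, Sdc3 159 and Ptprz1 108. For the integrins that bind periostin and tenascins, Itgav had 364, Itgb1 309, Itgb5 170, Itga9 153 and Itgb3 35. Ptprb had 115 reads and the heparan sulfate proteoglycan gene Sdc4 had 114. Median promoter reads were 56 in these genes, against 25 in the 8 genes and 48 in all genes with a region.

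Of 13 other tendon and ligament regulators, 8 exceeded the median gene, where 49.8% of genes with a region did. Gdf6, a joint and tendon growth factor, had 2545 reads, of which 1935 lay in 1 region, Tgfbr2 had 479 and Tgfb2 446, with the fewest, 15, at Fgf4. Of 20 other ligament and follicle matrix genes, 15 exceeded the median gene. Per 100 kb of nearest sequence, 7 of the 13 regulators and 8 of the 20 matrix genes exceeded it, where 50.0% of genes with a region did. Col1a2 had 565 reads, Dcn, which encodes the collagen-binding proteoglycan decorin, 468 and Thbs2 419. Aspn, which encodes asporin, a marker of the periodontal ligament, had the fewest, 26. The medians of the lists were 109 reads in the 8 genes, 209 in the paralogs with a region, 170 in the receptors and partners, 268 in the other regulators and 154 in the other matrix genes, against 85 in all genes with a region. Over genes with a region, the median span was 229 kb in the 8 genes, 235 kb in the paralogs, 117.5 kb in the receptors and partners, 129 kb in the other regulators and 152 kb in the other matrix genes, against 56.5 kb in all genes. The part of span in these differences was not tested.

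**Figure D5:**
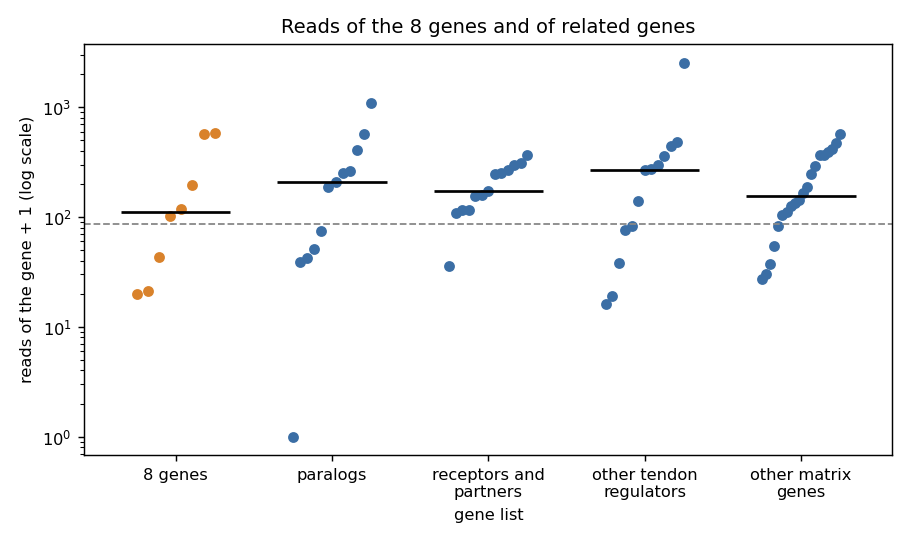
Reads of each gene plus 1 (y axis, log scale) for the 8 genes in orange and for 4 lists of related genes in blue; black bars are list medians over genes with a region, and the dashed line is the median gene of the library. The 8 genes run from 19 to 576 reads, and their median of 109 is the lowest of the 5 lists.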

How the data were processed

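Per the labels' protocols, the paired NextSeq500 reads were aligned to mm10 by BWA-MEM and MACS2 called the peaks; STAR 2.6.1d and Partek are also named, without a role, per the submitters' processing notes. Duplicate removal, a transposase shift and the libraries used to call regions are not given in the sources used here. Duplicates left in would inflate counts. The authors deposited values in CPM, each with 1 read added. With 1 read worth 0.0484 CPM, 99.9% of regions and all regions of the 8 genes held a whole multiple of it (tolerance 0.01 read), and subtracting 1 gave the reads. A shorter table of expected counts deposited by the authors matched within 0.00155 read in 16382 regions and holds none of the chromosomes of the 8 genes. A further 1 value column has no sample and was not used. The library held 2297894 reads in 121574 regions, with a median of 7 reads per region. A single count of 7 has a Poisson interval of 2.81 to 14.4. The sources used here do not say whether counts are of reads or of fragments.

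Regions were assigned on the GENCODE M21 basic annotation with Python 3.11.15, pandas 2.3.3, scipy 1.17.1 and pysam 0.24.0; scripts were tested on simulated layouts. Because the 4 lanes share 1 column, no count test was run on the recovered reads, and lanes could not be left out. The 8 genes, the related lists and the alternatives were chosen with earlier results of these data known. Named were all 8 genes, their promoter regions and up to 3 largest regions, all paralogs and receptors, and the 3 most and 1 least read genes of the other 2 lists; marker lists are given as counts and ranges. Printed promoter sequences were cut at the 5′ end of the gene to leave out transcribed sequence.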

Additional observations from a re-analysis of the deposited data

How the results depend on the processing

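The sums depend on the rule that ties a region to a gene. The 8 genes had 1639 reads in 128 regions; with noncoding TSSs included in the nearest-TSS rule they had 541 reads in 47 regions, with gene bodies and 5 kb around them 607 reads in 53 regions, and with all regions within 100 kb of a TSS 2124 reads. Regions with at least 10 reads left 1352 reads in 52 regions, 4 genes with a promoter region and a promoter share of 19.4%, and without the largest region of each gene 1267 reads remained. The count of genes above the median gene, 5 of 8, was 1 per kilobase of region, 3 with the largest region, 0 per 100 kb of nearest sequence, 3 on regions with at least 10 reads and 5 with genes without a region as 0. It was 8 on reads away from promoters and 4 on promoter reads where the median is over all protein-coding genes, and 6 and 2 where it is over genes with a region, a choice added after seeing the data. With promoters of 500 bp or 2 kb either side the share at promoters was 16.1% and 18.6%, and 7 and 8 genes had a promoter region. The share of all protein-coding genes with a promoter region was not computed for these widths or for at least 10 reads. These shares of reads keep the nearest protein-coding TSS rule. With noncoding TSSs included, 278 reads at promoters stood in a total of 541. Tnc ranged from 57 to 561 reads over 6 alternatives, Ptn from 207 to 568, Mkx from 65 to 196, Postn from 11 to 117 and Pthlh from 57 to 101. Scx ranged from 15 to 395, Tnmd from 6 to 178 and Tnn from 0 to 712. The order of the genes changed: Tnc lay below Mkx with noncoding TSSs included and with gene bodies, and below Tnn and Scx within 100 kb. The cause was not tested beyond the construction of each rule. No paired analysis was possible because all samples belong to 1 group and share 1 column, and for that reason no lane was left out. Counts under about 10 reads, as at the promoters of Postn, Scx and Tnn, have intervals too wide to order these genes.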

Other observations

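The surroundings of the 8 genes differed in how many reads lay nearest to other protein-coding genes. Within 100 kb of a TSS, and by protein-coding TSSs alone, all reads were nearest to the gene itself at Tnc (222 reads), Ptn (318), Mkx (130), Pthlh (101) and Postn (68). Noncoding genes were not counted here. With noncoding TSSs included in the nearest-TSS rule, Tnc had 57 reads in all, Ptn 230, Mkx 65, Pthlh 57 and Postn 51. At Scx, 42 of 395 reads (10.6%) were, the rest being nearest to 7 other genes, led by Dgat1, an enzyme of triglyceride synthesis, with 98. At Tnmd, 19 of 178 reads (10.7%) were, with 108 nearest to Srpx2. At Tnn, 20 of 712 reads (2.81%) were, with 339 nearest to Cacybp. The genes with few reads of their own thus included 3 whose windows hold accessible protein-coding neighbours.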
